A study of Mus musculus with 12 samples.

Results

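A set of 8 genes that are little studied in microglia was described across the 3 groups of an RNA sequencing study of BV2 cells. They are Tox2, Cbr2, Ecel1, Creg2, Hmcn2, Haao, Rasa4 and Spata5l1. The 8 genes were chosen by name, among 24934 genes with reads, for their lower level after oxygen and glucose deprivation than in untreated cells. Their values in that contrast are therefore a description, given without a test. All 8 were found in the deposited count table and in the FPKM table. All 8 passed the filter on low counts, which kept 13249 genes. Per 1000000 counted reads, without further scaling, 7 of them lay above the filter's level of 0.383 reads in all 12 libraries and Tox2 in 11, so none passed only through its Control level.

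BV2 is an immortalised mouse microglial line grown in culture. Each of the 3 groups held 4 libraries. Control cells have no treatment named in their labels, and OGD cells were deprived of oxygen and glucose and then re-oxygenated, which models a stroke in culture. The remaining group had acacetin, a flavone found in plants, at 10 µM; its own label names only the compound, and the design text of the series places it after deprivation and re-oxygenation. The labels give no duration of deprivation or re-oxygenation, no vehicle group and no group given acacetin without deprivation. Nor do they tell separate cultures from repeat libraries of 1 culture, so the p-values measure the spread between these samples, which may be technical.

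Haao, Cbr2 and Ecel1 encode enzymes. Haao (3-hydroxyanthranilate dioxygenase) acts late in the kynurenine pathway, which breaks down tryptophan; its product turns into quinolinic acid, a precursor of NAD that activates NMDA receptors and that is made in the brain mainly by microglia and macrophages. Cbr2 is a carbonyl reductase of the short-chain dehydrogenase family, which reduces reactive aldehydes and ketones, and Ecel1 is a membrane protein of the neprilysin family of peptidases, known mainly from neurons. Tox2 is a DNA-binding protein of the TOX family known from lymphocytes, and Rasa4 (CAPRI) switches off Ras after a calcium signal. Creg2 is a secreted glycoprotein, Hmcn2 (hemicentin 2) a very large protein of the extracellular matrix, and Spata5l1 (AFG2B) an AAA ATPase that works with its relative Spata5 (AFG2A) in maturing the large ribosomal subunit.

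The libraries held 16427886 (OGD 3) to 32693066 (Acacetin 2) counted reads. The share of 18S rRNA was 13.1% in OGD 2 and 21.3% in OGD 3, against 0.137% to 1.86% in the other 10 libraries. Regressed on log2 gene length, log2 expression relative to each gene's mean over the 12 libraries had its lowest slope in Acacetin 1 (-0.21) and its highest in Acacetin 3 (0.30). Levels are given in CPM, the reads of a gene per 1000000 reads after TMM scaling of the library sizes, except sums over markers, which are relative to all reads. All 10 microglia and macrophage markers had reads, with summed levels of 2596 to 3414 CPM in Control, 2832 to 3436 in OGD and 2856 to 3165 in Acacetin, although P2ry12 had only 13 reads in all. Lyz2 and Cd68 made up most of the sum (1750 and 913 CPM in Control). Single markers moved in both directions. By edgeR, on the log2 scale, Csf1r rose by 1.12 in OGD (adjusted p = 0.00017) and Cx3cr1 fell by 1.07 in OGD (adjusted p = 0.0048). By the same test and scale, Aif1 fell by 1.31 in Acacetin against Control (adjusted p = 0.0012). The 6 markers of tissue-resident macrophages summed to at most 0.907 CPM in any library (Cd163 and Timd4 at 0), the 9 of lymphocytes to 0.404 (Cd3g, Cd8a and Ncr1 at 0), the 4 of astrocytes to 1.21 (Aqp4 at 0) and the 4 of fibroblasts to 0.418 (Dcn at 0). The astrocyte sum was 0.279 to 0.611 CPM in Control, 0.670 to 1.21 in OGD and 0.606 to 1.18 in Acacetin. Of these markers, Slc1a2 had 184 reads over the 12 libraries. By edgeR it was called higher in OGD (log2 difference 1.94, adjusted p = 0.00866) and in Acacetin against Control (1.66, adjusted p = 0.0208). The 4 neuronal markers (Syt1 at 0) summed to 3.18 to 5.84 CPM in Control, 2.74 to 4.09 in OGD and 2.06 to 3.11 in Acacetin. Nearly all of that sum was Tubb3, with 1076 reads over the 12 libraries, against 5 for Rbfox3 and 3 for Snap25.

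The promoter windows of 3 of the genes, and of the neighbour of one of them, are shown because Cbr2 and its neighbour Dcxr were both low after deprivation, because Haao alone held the hypoxia response core, and because Tox2 was lowest of all. Each runs from 250 bases before to 50 bases after a RefSeq transcription start (GRCm38.p6) and is written 5′ to 3′ on the gene's strand, with the motif matches in capitals. The Cbr2 window, at chr11:120731972-120732271 on the minus strand, has the core GAGGAA of the myeloid factor PU.1 at position -79 from the start. The Dcxr window, at chr11:120727235-120727534 on the minus strand, belongs to the next gene in the RefSeq order and holds none of the motifs searched. The Haao window, at chr17:83846741-83847040 on the minus strand, has the hypoxia response core ACGTG on the opposite strand, at position 41 after the start. The fourth of 5 Tox2 windows, at chr2:163225203-163225502 on the plus strand, has a TATA box at -31 and a GC box at -85. The fifth, at chr2:163225204-163225503, is nearly the same window with the same motifs. Of the windows not shown, the first and second hold several GC boxes and no TATA box, and the third holds no motif. Which start these cells use was not tested.
Cbr2: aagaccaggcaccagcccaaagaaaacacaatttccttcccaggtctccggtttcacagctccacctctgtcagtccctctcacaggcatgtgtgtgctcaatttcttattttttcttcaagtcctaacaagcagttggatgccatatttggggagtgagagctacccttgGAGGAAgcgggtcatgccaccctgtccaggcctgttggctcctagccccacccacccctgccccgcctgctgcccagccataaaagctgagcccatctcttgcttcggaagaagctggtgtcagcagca
Dcxr: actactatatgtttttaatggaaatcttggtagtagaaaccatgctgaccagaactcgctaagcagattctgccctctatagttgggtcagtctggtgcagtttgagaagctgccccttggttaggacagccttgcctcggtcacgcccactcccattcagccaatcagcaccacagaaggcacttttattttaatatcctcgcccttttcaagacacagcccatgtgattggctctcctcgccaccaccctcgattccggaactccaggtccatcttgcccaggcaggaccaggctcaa
Haao: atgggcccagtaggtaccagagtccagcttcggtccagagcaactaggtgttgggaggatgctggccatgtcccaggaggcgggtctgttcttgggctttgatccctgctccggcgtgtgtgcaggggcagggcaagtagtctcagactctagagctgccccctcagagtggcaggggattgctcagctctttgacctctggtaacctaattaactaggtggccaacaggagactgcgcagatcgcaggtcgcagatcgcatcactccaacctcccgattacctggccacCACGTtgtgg
Tox2: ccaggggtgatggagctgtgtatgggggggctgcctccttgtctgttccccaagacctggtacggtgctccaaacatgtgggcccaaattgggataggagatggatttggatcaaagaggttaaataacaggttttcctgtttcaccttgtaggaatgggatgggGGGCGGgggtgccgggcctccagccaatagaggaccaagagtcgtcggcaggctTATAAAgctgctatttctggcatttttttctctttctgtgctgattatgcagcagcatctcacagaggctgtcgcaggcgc

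Over all 12 windows of the 8 genes (credited to RefSeq, 8 of 8 matched by symbol), each motif was sought on both strands and set beside its share of the 32851 windows in the table. The hypoxia core ACGTG was in 1 gene of 8 (19.6% of all windows), the AP-1 element TGANTCA in 1, Hmcn2 (7.81%), and GAGGAA in 2, Cbr2 and Ecel1 (28.3%). The TATA box TATAAA was in 1 gene (13.6%) and the GC box GGGCGG in 2, Tox2 and Rasa4 (35.7%). The cAMP response element TGACGTCA (1.79%), the antioxidant response core TGACNNNGC (12.4%) and the E-box CACGTG, which contains ACGTG (7.15%), had no match. The Creg2 and Spata5l1 windows held none of the 8 motifs. The windows ranged from 51.7% to 77.7% G and C, against a median of 52.7% over all windows. No motif was shared by more than 2 of the 8 genes, and a match is only a match of letters.

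After deprivation the 8 genes stood at 8.54% (Tox2) to 42.3% (Spata5l1) of their Control mean. Their falls ranked from 7th (Tox2) to 555th (Spata5l1) among the 13249 tested genes by log2 fold change. In bulk RNA, fewer cells with a transcript and less transcript per cell cannot be told apart. For each of the 8, all 4 OGD libraries lay below all 4 Control libraries. That separation was seen in 17.0% of all tested genes, and 12.6% were called lower and 16.2% higher by edgeR's quasi-likelihood test at an adjusted p under 0.05; nothing is read from these shares here, since the genes were selected on this contrast. The edgeR fit called 2148 genes higher and 1665 lower, and limma on log2(FPKM + 1) called 910 higher and 1882 lower. The median log2 difference of all tested genes was 0.03.

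**Figure D1:**
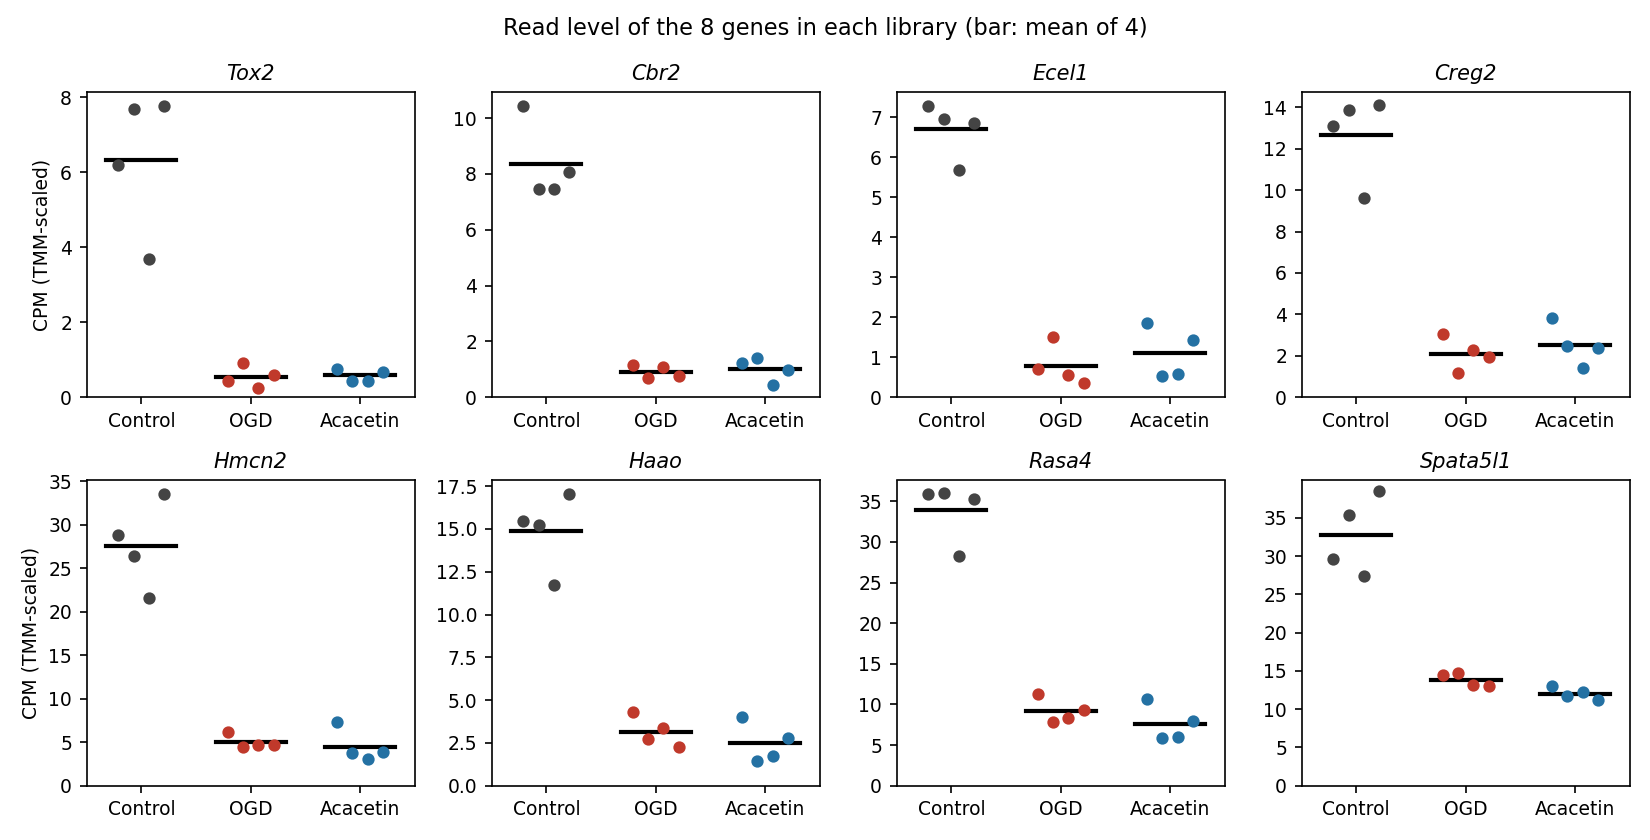
Level of each of the 8 genes in CPM (vertical axis, linear from 0, own scale per panel) in the 4 Control, 4 OGD and 4 Acacetin libraries (points), with bars for the group means. In every panel the 4 Control points lie above all OGD and Acacetin points, and the OGD and Acacetin points overlap.

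Among the 3 enzymes, Cbr2 had the largest separation between Control and OGD. Cbr2 (ENSMUSG00000025150.11, chromosome 11) was at 10.4, 7.47, 7.46 and 8.06 CPM in Control 1 to 4, at 1.14, 0.699, 1.09 and 0.747 CPM in OGD 1 to 4, and at 1.24, 1.40, 0.440 and 0.969 CPM in Acacetin 1 to 4. The lowest Control library was 6.56 times the highest OGD library, the widest such gap of the 8 genes. The means were 8.36 ± 1.42, 0.919 ± 0.228 and 1.01 ± 0.419 CPM (SD, n = 4 each), and the log2 difference of OGD from Control was -3.18 ± 0.34 (SE). Haao (ENSMUSG00000000673.10, chromosome 17) was at 15.5, 15.2, 11.7 and 17.1 CPM in Control, at 4.29, 2.75, 3.36 and 2.24 CPM in OGD and at 3.99, 1.43, 1.73 and 2.81 CPM in Acacetin. All 8 libraries given deprivation were below the lowest Control library, which was Control 3. Its means were 14.9 ± 2.26, 3.16 ± 0.883 and 2.49 ± 1.16 CPM (SD, n = 4 each), a log2 difference of OGD from Control of -2.23 ± 0.31 (SE).

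Ecel1 (ENSMUSG00000026247.14, chromosome 1) was the most even of the 8 genes in Control, at 7.29, 6.97, 5.67 and 6.87 CPM, a coefficient of variation of 10.5%. It was at 0.695, 1.50, 0.547 and 0.357 CPM in OGD and at 1.85, 0.524, 0.577 and 1.42 CPM in Acacetin. OGD 2, which is rich in 18S reads, was the highest OGD library; the log2 difference of OGD from Control was -3.12 ± 0.47 (SE) with it, and -3.66 when OGD 2 and OGD 3 were left out. The means were 6.70 ± 0.706, 0.774 ± 0.502 and 1.09 ± 0.652 CPM (SD, n = 4 each). The summed neuronal markers, nearly all of them Tubb3 reads, were also lower in Acacetin than in any Control library. After TMM scaling, the Tubb3 levels of Acacetin (1.59 to 3.66 CPM) and Control (3.29 to 6.14 CPM) overlapped. By edgeR, Tubb3 was still called lower in Acacetin against Control (log2 difference -0.96, adjusted p = 0.0355). That call was kept in 11 of 18 alternatives. The part of these markers in the Ecel1 values was not tested.

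Of the 2 genes of transcription and Ras signalling, Tox2 had the lowest level of all 8 after deprivation. Tox2 (ENSMUSG00000074607.12, chromosome 2) was at 6.18, 7.67, 3.69 and 7.76 CPM in Control 1 to 4, at 0.442, 0.899, 0.234 and 0.585 CPM in OGD and at 0.760, 0.437, 0.440 and 0.679 CPM in Acacetin. These values rest on 93 to 234 reads in the Control libraries but on only 3 to 18 in OGD and 15 to 21 in Acacetin, so counting error is large in the last groups. Control 3 was the lowest Control library and OGD 3 the lowest OGD library, and the Control and OGD libraries did not overlap. The means were 6.33 ± 1.90, 0.540 ± 0.279 and 0.579 ± 0.166 CPM (SD, n = 4 each), and the log2 difference of OGD from Control was -3.51 ± 0.38 (SE).

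Rasa4 (ENSMUSG00000004952.14, chromosome 5) was among the better measured, with 35.9, 36.0, 28.2 and 35.3 CPM in Control, against 11.2, 7.79, 8.28 and 9.26 CPM in OGD and 10.7, 5.91, 6.05 and 7.95 CPM in Acacetin. Again Control 3 was lowest in its group, and OGD 1 and Acacetin 1 were highest in theirs. The means were 33.9 ± 3.77, 9.14 ± 1.53 and 7.65 ± 2.23 CPM (SD, n = 4 each), with a log2 difference of OGD from Control of -1.88 ± 0.20 (SE).

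The genes of secreted and matrix proteins were also highest in all 4 Control libraries. Creg2 (ENSMUSG00000050967.6, chromosome 1) was at 13.1, 13.9, 9.60 and 14.1 CPM in Control, at 3.03, 1.15, 2.27 and 1.95 CPM in OGD and at 3.85, 2.47, 1.40 and 2.39 CPM in Acacetin, with means of 12.7 ± 2.09, 2.10 ± 0.779 and 2.53 ± 1.00 CPM (SD, n = 4 each). Its log2 difference of OGD from Control was -2.58 ± 0.33 (SE). In RefSeq, Creg2 overlaps D930019O06Rik, which had a log2 difference of -1.57 that missed the threshold (adjusted p = 0.0647, edgeR); the strand setting of the authors' counting was not given in the sources used here, so reads of the pair may not be told apart. Hmcn2 (ENSMUSG00000055632.19, chromosome 2) was at 28.8, 26.5, 21.5 and 33.6 CPM in Control, at 6.13, 4.50, 4.69 and 4.68 CPM in OGD and at 7.31, 3.76, 3.02 and 3.88 CPM in Acacetin. Its transcript was by far the longest, 18.6 kb by the ratio of counts to FPKM, against a median of 4.63 kb over all tested genes. OGD 1 and Acacetin 1 stood above the rest of their groups. Its means were 27.6 ± 5.004, 4.997 ± 0.758 and 4.49 ± 1.92 CPM (SD, n = 4 each), a log2 difference of OGD from Control of -2.46 ± 0.26 (SE).

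Spata5l1 (ENSMUSG00000118663.1, chromosome 2) had the smallest difference of the 8 and the tightest values after deprivation. It was at 29.7, 35.3, 27.4 and 38.5 CPM in Control, at 14.5, 14.7, 13.2 and 12.99 CPM in OGD and at 13.01, 11.7, 12.2 and 11.2 CPM in Acacetin. The coefficient of variation was 6.40% in OGD and 6.28% in Acacetin, the lowest of the 8 genes in both groups, while that of Ecel1 reached 64.9% and 59.6%. Its means were 32.7 ± 5.11, 13.9 ± 0.887 and 12.04 ± 0.756 CPM (SD, n = 4 each), a log2 difference of OGD from Control of -1.24 ± 0.14 (SE). Its lowest Control library was still 1.86 times its highest OGD library.

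The 8 genes were low in the OGD libraries with and without many 18S reads. In OGD 1 and OGD 4 alone, they were at 7.85% (Ecel1) to 42.0% (Spata5l1) of the Control mean. In OGD 2 and OGD 3 they were at 8.96% (Tox2) to 42.7% (Spata5l1). The genes were chosen on these same OGD libraries, so low values in both pairs were largely fixed in advance. The part of the 18S share was not tested.

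The compound was then compared with Control, which asks whether the genes were still low in deprived cells that received acacetin. The Acacetin libraries were not used to choose the genes, but the Control libraries were, and this comparison shares them, so it is not independent evidence of a fall. All 8 genes were called lower by edgeR's quasi-likelihood test over 13249 genes, of which 12.9% were called lower and 14.0% higher. For each of the 8, all 4 Acacetin libraries lay below all 4 Control libraries, as in 13.5% of tested genes. Levels were 9.15% (Tox2) to 36.8% (Spata5l1) of the Control mean.

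For Tox2 the log2 difference of Acacetin from Control was -3.46 ± 0.38 (SE, adjusted p = 0.000133) and for Cbr2 -3.05 ± 0.33 (adjusted p = 0.000133). The differences were -2.64 ± 0.45 for Ecel1 (adjusted p = 0.00115), -2.33 ± 0.33 for Creg2 (adjusted p = 0.000456) and -2.59 ± 0.32 for Haao (adjusted p = 0.000209). They were -2.63 ± 0.26 for Hmcn2, -2.15 ± 0.20 for Rasa4 and -1.44 ± 0.14 for Spata5l1 (adjusted p = 7.27e-05 for each of the last 3). The direction was the same in 4 of 4 Acacetin libraries for every one of the 8 genes.

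Acacetin against OGD asks whether the compound moved the genes from their deprived level, and shares the OGD libraries used in choosing them. None of the 8 passed the test: edgeR called 0 of 8, 0 of 8 had an unadjusted p under 0.05, and DESeq2 called 0 of 8. Over all 13249 genes edgeR called 0%, with 685 at an unadjusted p under 0.05, and DESeq2 called 37 genes. The groups overlapped for all 8 genes, whereas 2.35% of tested genes had groups that did not overlap in either direction. Of the 8 log2 differences, 4 were above 0 and 4 below.

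The intervals show what these libraries could have missed. The 95% interval of the log2 difference of Acacetin from OGD was -0.50 to 0.09 for Spata5l1, around an estimate of -0.20 ± 0.14 (SE, adjusted p = 0.835), and -0.69 to 0.16 for Rasa4, around -0.27 ± 0.20 (adjusted p = 0.837). It was -0.71 to 0.37 for Hmcn2, -1.02 to 0.31 for Haao and -0.44 to 0.95 for Creg2. It was widest for the genes with fewest reads, -0.59 to 0.85 for Cbr2, -0.79 to 0.89 for Tox2 and -0.52 to 1.48 for Ecel1.

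**Figure D2:**
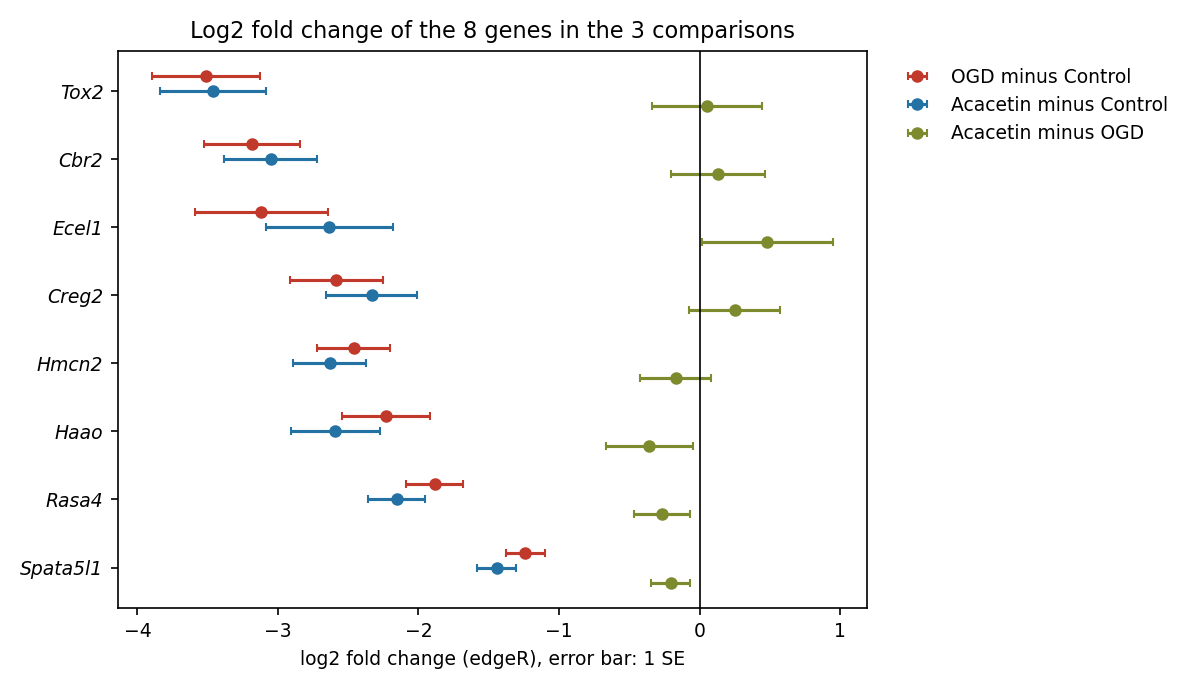
Log2 fold change (horizontal axis) of each of the 8 genes (rows) in OGD against Control, Acacetin against OGD and Acacetin against Control, from 1 edgeR fit of 12 libraries; points are estimates and bars 1 standard error either way. The 2 comparisons with Control run from -3.51 to -1.24, while those of Acacetin with OGD lie between -0.36 and 0.48.

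FPKM values are divided by transcript length and allow the genes to be ordered by level. In Control the order was Spata5l1 (6.12 ± 1.28 FPKM), Cbr2 (5.35 ± 0.809), Rasa4 (3.86 ± 0.511), Haao (2.71 ± 0.528), Creg2 (1.78 ± 0.347), Ecel1 (1.63 ± 0.194), Tox2 (1.60 ± 0.530) and Hmcn2 (1.47 ± 0.343; SD, n = 4 each). In that group only Cbr2 and Rasa4 were neighbours whose libraries did not overlap, with a lowest Cbr2 value of 4.69 FPKM against a highest Rasa4 value of 4.38 FPKM. Hmcn2, which was above Haao and Creg2 by CPM in Control, was last per length. In OGD the mean was 2.38 FPKM for Spata5l1, 0.983 for Rasa4, 0.540 for Cbr2 and 0.525 for Haao, and from 0.275 (Creg2) down to 0.125 (Tox2) for the other genes. In Acacetin it was 2.48 FPKM for Spata5l1, 0.943 for Rasa4 and 0.693 for Cbr2, and from 0.485 (Haao) down to 0.158 (Tox2) for the rest. Among neighbours in the order, libraries did not overlap between Spata5l1 and Rasa4 in OGD and Acacetin and between Hmcn2 and Tox2 in Acacetin, and all other neighbours overlapped. By its mean, Cbr2 was above Rasa4 in Control and below it in OGD and Acacetin.

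In some libraries, but not in all, the 8 genes tended to be high or low together. Control 3 was the lowest Control library for 8 of 8 genes, as it was for 25.7% of all tested genes and 43.7% of those called lower in OGD. OGD 1 was the highest OGD library for 5 of 8 genes (23.1% of tested genes, 57.7% of those called lower), and Acacetin 1 the highest Acacetin library for 7 of 8 (42.2% and 66.5%). By contrast, OGD 2 was the highest OGD library for 3 of the 8 genes and the lowest for 4. On the log2 CPM scale, deviations from the group mean ran from -0.75 to 1.06 in OGD 2 and from -0.78 to 0.55 in Acacetin 2. The median deviation of the 8 genes from their group mean was -0.29 in Control 3, 0.31 in OGD 1 and 0.60 in Acacetin 1. Acacetin 1 also had the most negative slope on gene length and OGD 1 little 18S RNA (0.248%); the part of either in these deviations was not tested. Over the 12 libraries, Pearson correlations of log2 CPM among the 8 genes ran from 0.883 (Creg2 and Ecel1) to 0.992 (Rasa4 and Hmcn2), a description that reflects the shared groups and libraries.

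**Figure D3:**
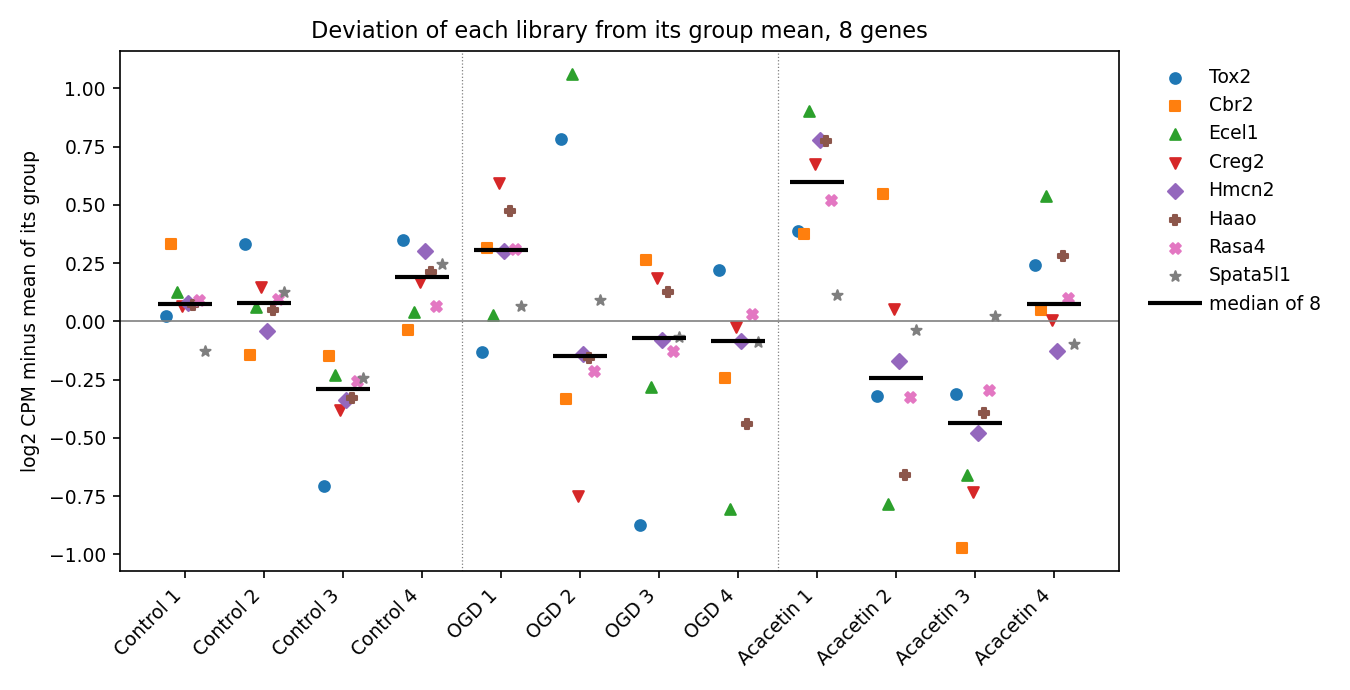
Deviation of log2 CPM from the gene's group mean (vertical axis) in each of the 12 libraries, with 1 point per gene for the 8 genes and a bar for their median. All 8 points are below 0 in Control 3, and the medians of OGD 1 and Acacetin 1 are 0.31 and 0.60.

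To see whether relatives of the 8 genes were also low, 8 lists of other family or pathway members were read from the same fit, in which 48 of 76 listed genes were tested. In OGD against Control, 7 were called higher, 10 lower and 31 were not called, with a median log2 difference of -0.15; of all tested genes 16.2% were called higher and 12.6% lower. In Acacetin against Control, 3 were called higher and 9 lower (14.0% and 12.9% of all tested genes).

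Among 12 tested short-chain dehydrogenases and carbonyl reductases related to Cbr2, 5 fell and 3 rose in OGD. The largest fall was that of Dcxr (ENSMUSG00000039450.12, chromosome 11), which reduces dicarbonyls and L-xylulose and is the gene next to Cbr2 in the RefSeq order, with no gene between. Dcxr was at 41.2, 30.4, 30.8 and 33.2 CPM in Control, at 8.12, 7.89, 7.81 and 5.33 CPM in OGD and at 13.01, 7.34, 5.91 and 8.92 CPM in Acacetin. It fell by 2.22 on the log2 scale in OGD (adjusted p = 5.98e-05) and by 1.95 in Acacetin against Control (adjusted p = 0.000182), with no overlap between the groups, and both calls held in all 18 alternatives. Cbr2 had 0.242 to 0.253 reads per Dcxr read in the Control libraries, 0.0886 to 0.140 in OGD and 0.0744 to 0.190 in Acacetin, so the Control libraries did not overlap the others in this ratio. The ratio is a description, since Cbr2 was chosen for its fall and Dcxr was not. The transcripts of the pair share 75.7% of 684 aligned bases, with a longest identical stretch of 16 bases.

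On the log2 scale by edgeR, Cbr4, a mitochondrial carbonyl reductase, fell by 1.12 (adjusted p = 0.00187) and Dhrs7 by 0.80 (adjusted p = 0.00157). Dhrs1 fell by 0.99 (adjusted p = 0.00380). Hsd17b12, which elongates fatty acids, rose by 0.83 (adjusted p = 0.000617). The other 3 calls were lost in several alternatives. Hsd17b10 fell by 0.66 (adjusted p = 0.0328), but not to the threshold without Control 1, 2 or 3 or OGD 4 (adjusted p = 0.0615 to 0.0880), or without both OGD 2 and OGD 3 (0.0686). Dhrs4 rose by 0.64 (adjusted p = 0.0288), and lost its call without Control 1, 2 or 4 or OGD 2 or 3 (0.0512 to 0.102); without both OGD 2 and OGD 3 the difference was 0.38 (0.244). Hsd17b4 rose by 0.41 (adjusted p = 0.0151), and lost its call without Control 2 (0.0532) or OGD 2 (0.0518). With limma on log2(FPKM + 1) and log2(FPKM + 0.1), Hsd17b4 had 0.23 and 0.24 (adjusted p = 0.428 and 0.430). Cbr4, Dhrs1, Hsd17b10, Dhrs4 and Hsd17b4 were named after their values had been seen.

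In the kynurenine and NAD list, 3 of 10 tested genes fell and none rose in OGD by edgeR, with a median log2 difference of -0.29. Kyat1, which turns kynurenine into kynurenic acid, was at 44.0, 37.4, 35.9 and 40.0 CPM in Control, at 15.1, 8.44, 7.19 and 9.29 CPM in OGD and at 19.0, 8.88, 7.36 and 10.9 CPM in Acacetin. Its groups did not overlap with Control. On the log2 scale it fell by 1.96 in OGD (adjusted p = 0.000316) and by 1.78 in Acacetin (adjusted p = 0.000757), in all 18 alternatives. Haao had 0.326 to 0.426 reads per Kyat1 read in the Control libraries, 0.241 to 0.467 in OGD and 0.161 to 0.259 in Acacetin. In this ratio, a description only, Control overlapped OGD but not Acacetin. Nadsyn1, which makes NAD in the last step of the pathway, had means of 7.83, 3.57 and 3.64 CPM. It fell by 1.13 on the log2 scale in OGD (adjusted p = 0.00318). Afmid, the kynurenine formamidase, fell from a mean of 2.36 to 1.29 CPM (log2 difference -0.87, adjusted p = 0.0460). That call was lost when any of Control 1, 2 or 3 or OGD 1 to 4 was left out (adjusted p = 0.0588 to 0.123). Kynu, whose reaction makes the substrate of Haao, was low at 0.710, 0.455 and 0.491 CPM and was not called (adjusted p = 0.251).

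Much of the route around Haao was hardly measured in these cells. Ido1, the entry enzyme, had 0 reads in the 12 libraries, and Tdo2 had 24, Ido2 53 and Kmo, which makes 3-hydroxykynurenine, 57 reads in all. Qprt, which uses the quinolinic acid formed from the product of Haao, had 68 reads, and Acmsd, which diverts that product, 9. None of these entered the tests.

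Ecel1 had 1 tested relative of 6 in the neprilysin family, Ece1, which matures endothelin. Ece1 rose from a mean of 28.7 to 42.7 CPM in OGD (log2 difference 0.57, adjusted p = 0.0120), opposite to Ecel1; limma on log2(FPKM + 1) gave 0.35 with an adjusted p of 0.368. Mme and Kel had 0 reads.

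Creg1, the only relative of Creg2 and a glycoprotein of lysosomes, was at 168, 153, 176 and 153 CPM in Control, at 221, 333, 269 and 197 CPM in OGD and at 286, 309, 209 and 201 CPM in Acacetin. It rose by 0.65 on the log2 scale in OGD (adjusted p = 0.0170) with no overlap between the groups. The call was lost without Control 2 (adjusted p = 0.0539) or OGD 2 (0.0644). Without both OGD 2 and OGD 3 the difference was 0.36 (0.153). In the same OGD libraries Creg2 was at 16.6% of its Control mean.

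Of 16 listed fibulins and basement membrane genes related to Hmcn2, 6 were tested, and edgeR called none in OGD. Their median log2 difference was -0.28; Lamb2, a laminin chain, had -1.12 (adjusted p = 0.0830), Col4a2 0.40 and Col4a1 0.37. Hmcn1, the closest relative, had 4 reads in all.

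Tox and Tox3 had 0 reads, which left Tox4, a partner of protein phosphatase 1, as the only tested gene of the TOX family. Tox4 was not called, with means of 67.4, 58.8 and 59.1 CPM (log2 difference in OGD -0.20, adjusted p = 0.279).

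All 10 listed Ras GTPase-activating genes related to Rasa4 were tested. Rasa3 fell from a mean of 23.4 to 13.5 CPM (log2 difference -0.79, adjusted p = 0.00258; 0.0686 without OGD 2 and OGD 3). Rasal3, which is found in blood cells, rose from 47.5 to 68.0 CPM (0.52, adjusted p = 0.0137; 0.183 with limma on log2(FPKM + 1)). The remaining 8 were not called, among them Rasa1 with means of 1.34 and 1.68 CPM (adjusted p = 0.773), and the list's median was -0.07.

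Among 7 tested AAA ATPases and partners of Spata5l1, 1 rose and 1 fell in OGD. Spata5, the partner of Spata5l1, was at 2.54, 3.15, 4.13 and 4.48 CPM in Control, at 5.56, 7.79, 9.06 and 7.08 CPM in OGD and at 2.85, 6.55, 8.82 and 7.79 CPM in Acacetin. It rose by 1.04 on the log2 scale in OGD (adjusted p = 0.0239), where no OGD library overlapped Control. In Acacetin against Control the log2 difference was 0.87 (adjusted p = 0.0545), with Acacetin 1 within the Control range, and Acacetin against OGD gave -0.17 (adjusted p = 0.945). The call in OGD was lost without Control 1, Control 2, OGD 2 or OGD 3 (log2 differences of 0.90 to 1.01, adjusted p = 0.0556 to 0.0882) and without both OGD 2 and OGD 3 (0.83, adjusted p = 0.216). It was also lost with limma on log2(FPKM + 1) (0.45, adjusted p = 0.170) and on log2(FPKM + 0.1) (0.81, adjusted p = 0.144). The reads of Spata5l1 per read of Spata5 were 6.63 to 11.7 in Control, 1.46 to 2.61 in OGD and 1.38 to 4.57 in Acacetin, with no overlap with Control. Since Spata5l1 was chosen for its fall, this ratio is a description and not a separate result. Pex6, which recycles the peroxisomal import receptor, fell from a mean of 83.7 to 40.1 CPM (-1.06, adjusted p = 0.000972).

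**Figure D4:**
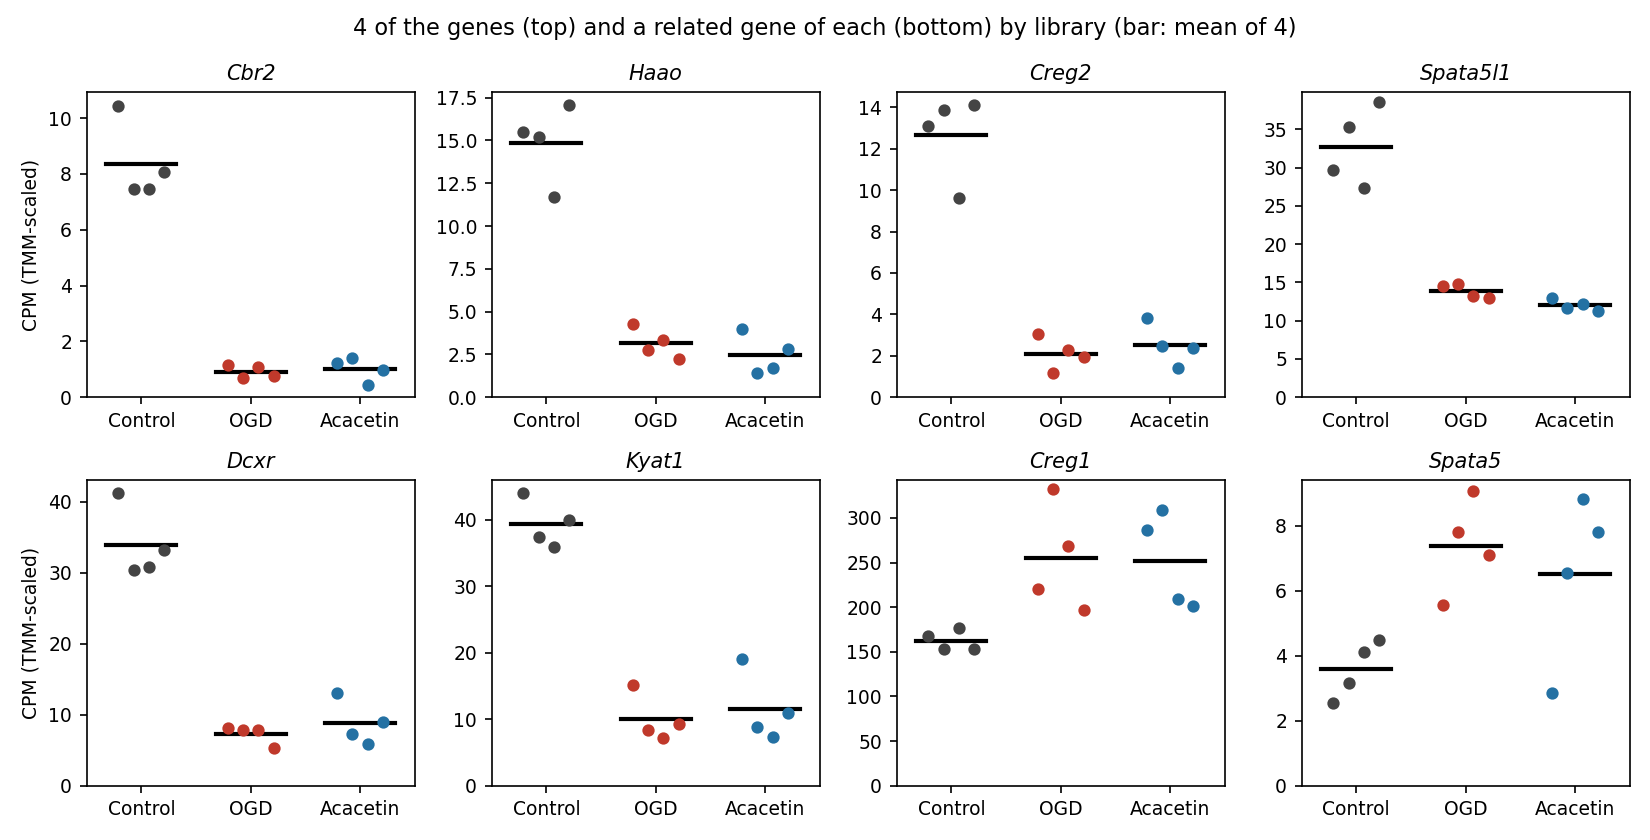
Level in CPM (vertical axes, linear from 0) of Cbr2, Haao, Creg2 and Spata5l1 in the upper row and of the related genes Dcxr, Kyat1, Creg1 and Spata5 in the lower row, by library in each group, with bars for the means. Dcxr and Kyat1 lie lower in OGD than in Control, as the gene above them does, while Creg1 and Spata5 lie higher.

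The nearest tested gene on each side was read for all 8 genes, 16 in all; untested genes may lie between. In OGD against Control 4 fell and 3 rose, where 12.6% of all tested genes were called lower and 16.2% higher. In Acacetin against Control 6 were lower and 2 higher, where 12.9% of all tested genes were lower and 14.0% higher. Besides Dcxr, the falls were those of Gtsf1l beside Tox2 (1.88 to 0.377 CPM, log2 difference -2.34, adjusted p = 0.000233), Ass1 beside Hmcn2, which makes argininosuccinate (-0.93, adjusted p = 0.00190), and AA467197 beside Spata5l1. Gtsf1l had only 261 reads over the 12 libraries. Its means of 0.377 CPM in OGD and 0.265 CPM in Acacetin lay below 0.383, the filter's level before TMM scaling. AA467197, a homologue of human NMES1, was at means of 91.6, 29.6 and 23.1 CPM and fell by 1.63 on the log2 scale in OGD (adjusted p = 0.00113). The rises were those of Oser1 beside Tox2 (0.79, adjusted p = 0.00252), Rnf149 beside Creg2 (0.89, adjusted p = 0.000673) and Gpr107 beside Hmcn2 (0.47, adjusted p = 0.0409). The call of Gpr107 was lost without Control 1, 2 or 4 or OGD 1, 2 or 3 (adjusted p = 0.0586 to 0.0977), without both OGD 2 and OGD 3 (0.152), with the length trend removed (0.327), and with limma on log2(FPKM + 1) (log2 difference 0.27, adjusted p = 0.259) and log2(FPKM + 0.1) (0.33, adjusted p = 0.257). That of Rnf149 was lost with limma on log2(FPKM + 1) (0.64, adjusted p = 0.0563). Both neighbours of Ecel1, Haao and Rasa4 were not called in OGD.

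Among 9380 genes with at least 2 CPM on average, the genes most like each of the 8 over the 12 libraries were found by Pearson's r of log2 CPM, as a description of libraries that share groups. They were Suox (0.980) and Dusp4 (0.975) for Tox2, Ltc4s (0.979) and Wdr91 (0.979) for Cbr2, and Ccdc130 and Accs (0.976 each) for Ecel1. They were Wdr91 (0.988) and Gramd1a (0.987) for Creg2, Aplp1 (0.996) and Mib2 (0.993) for Hmcn2, and Lcn2 (0.990) and Tspan13 (0.987) for Haao. For Rasa4 they were Irak2 (0.992) and Coq8a (0.991), and Dusp4 (0.983) was among those for Spata5l1. Each of the genes named here was itself called lower in OGD. That follows largely from the choice, since they were picked for likeness to genes chosen for their fall. Their values in this contrast are therefore given without p-values. Ltc4s, which makes leukotriene C4, fell from 14.9 to 3.09 CPM (log2 difference -2.26), and Lcn2, which binds bacterial siderophores, from 391 to 107 CPM (-1.87). Dusp4, a phosphatase of MAP kinases, fell from 225 to 59.6 CPM (-1.92).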

How the data were processed

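RNA was measured in 12 BV2 libraries, 4 each for Control, OGD and Acacetin, and samples were grouped by the treatment named in the labels. Per the labels' protocols, TRIzol total RNA was treated with DNase and made into stranded mRNA libraries read as pairs on a NovaSeq instrument; per the submitters' processing notes, bcl2fastq, HISAT2, DESeq2 and GRCm39 are named, and the read counter, annotation release and strand setting are not given in the sources used here. Raw read counts per gene and FPKM values were deposited; the latter divide the fragments by transcript length and library depth. 0 columns were unmatched. Chromosomes come from the deposited table. The depth of 16427886 to 32693066 reads limits only counting error, since reads counted without identifiers of single molecules cannot be taken as independent.

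Counts were fitted with edgeR 4.0.16 in R 4.3.3: filterByExpr by group (minimum count 10, minimum total 15, 13249 genes kept), TMM scaling, 1 quasi-likelihood fit of all 12 libraries, two-sided tests adjusted by Benjamini-Hochberg over all tested genes in each comparison, and calls at an adjusted p under 0.05. CPM use TMM-scaled library sizes, except the marker sums, which are relative to all reads. Log2 CPM use a prior count of 2. The test script was tested on simulated data.

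The 8 genes, the 8 lists of related genes, the 6 marker lists and the motifs were chosen with earlier results of these data known. Genes were named by a rule: the 8 genes, up to 3 per related list with the smallest p in OGD against Control, Dcxr, Creg1, Kmo, Kynu, Tox, Tox4, Rasa1, Rasa3 and Spata5, the nearest tested RefSeq gene on each side, and the 2 most correlated genes, of which 1 is not reported here. Others are said to be chosen after seeing values or belong to the lists. RefSeq GRCm38.p6 gave gene order and promoters. Replicate numbers were not used to pair the samples in the main fit, and whether they mark pairs was left unresolved. The alternatives were DESeq2 1.42.0, its size factors, no filter or a mean of at least 1 CPM, only the 8 libraries compared, a replicate block, limma 3.58.1 on log2 FPKM with 1 or 0.1 added, each library left out, OGD 2 and 3 or Acacetin 1 and 3 left out, and removal of the trend with gene length (lowess span 0.5). The same alternatives were recomputed for the related genes and neighbours after the data were seen.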

Additional observations from a re-analysis of the deposited data

Results flagged for a closer look

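Within each group of 4 libraries, the CPM of the 8 genes were searched for a library far from the other 3 (Dixon's ratio above 0.829), over 24 groups; chance alone flags about 1 in 20. Hmcn2 stood at 6.13 CPM in OGD 1, above 4.50 to 4.69 CPM in the other OGD libraries. Rasa4 stood at 28.2 CPM in Control 3, below 35.3 to 36.0 CPM in the other Control libraries.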

How the results depend on the processing

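All 8 genes were called lower in Acacetin against Control in each of 18 alternatives, and 0 of 8 were called in Acacetin against OGD in each of 19. In the main fit, 12.9% of all tested genes were called lower in Acacetin against Control. Since that comparison shares the Control libraries used to choose the 8 genes, its stability is not independent evidence of a fall. The number of genes called in OGD against Control was 3813, but 2010 without OGD 2 and 3. In Acacetin against OGD it was 0, but 37 with DESeq2, 8 with no filter on low counts, 1 with only the 8 libraries compared, 1 with limma on log2(FPKM + 0.1), 4 without Acacetin 1 and 3, 4 with the length trend removed, and 0 to 9 when 1 library was left out, 9 being without Acacetin 1. In Acacetin against Control it was 3559, but 2352 with limma on log2(FPKM + 0.1), and 2373 (without Control 2) to 5818 (without Acacetin 1) when 1 library was left out. The cause of these shifts was not tested. With the replicate number as a block, 4572, 2 and 4279 genes were called in OGD against Control, Acacetin against OGD and Acacetin against Control, with no call of the 8 genes changed; same-number correlations ran from -0.29 to 0.51, and not every library correlated best with its own number.

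The direction of Acacetin against OGD reversed for 5 of the 8 genes, none of them called. The log2 difference of Tox2 was -0.05 without OGD 1, -0.09 without OGD 3, -0.10 without Acacetin 1 and -0.04 without Acacetin 4, within a range of -0.10 to 0.37; that of Cbr2 was -0.079 without Acacetin 2 and reached 0.39 without Acacetin 3; that of Creg2 was -0.018 without Acacetin 1 and reached 0.50 without OGD 1. With limma on log2(FPKM + 1) and log2(FPKM + 0.1), Hmcn2 had 0.0097 and 0.047 and Spata5l1 0.057 and 0.085. The OGD to Control differences stayed negative for all 8 genes in all alternatives, but log2(FPKM + 1), which shrinks low values, gave -2.04 (Cbr2) to -0.98 (Hmcn2).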
